A study of Mus musculus with 6 samples.

Results

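The promoters of 5 genes that carry the insulin signal to glucose uptake were examined in adipose DNA: Insr, Irs1, Irs2, Akt2 and Slc2a4. Each gene was represented by the array probes lying in a window of 6000 bp around its start site in mm9 coordinates. These windows held 45 of the 174638 probes of the promoter array, in 6 of its 22584 promoter regions with at least 3 probes. A promoter region here is a run of probes whose starts lie at most 500 bp apart. Insr, Irs1, Irs2 and Slc2a4 had 1 region each, and the Akt2 window held 2, here called Akt2 upstream and Akt2 proximal. All 45 probes were used, since none was marked as an outlier on any array.

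The LC mice were female C57BL/6J offspring of dams fed a low chromium diet through gestation and lactation, and they received the control diet from weaning. The CC mice were female offspring of dams on the control diet and received the control diet themselves. No litter gave more than 1 female to a group, and fat was taken from all mice at 32 weeks of age after fasting. Each of the 6 arrays, 3 per group, carried DNA of 1 mouse. The fat depot is not named, adipose tissue holds several cell types, and a shift in their shares cannot be told apart from a change of methylation within them. Because DNA was measured, the tissue label was not checked against marker genes. DNA fragments bound by an antibody to 5-methylcytidine (methyl-DNA immunoprecipitation, MeDIP) were labeled with Cy5, and the unselected input DNA of the same mouse with Cy3, on every array. The value of a probe is the log2 ratio of MeDIP over input signal after each array was centered on its median, so that 0 is the middle probe of the array. It measures enrichment and not a fraction of methylated cytosines, and it also depends on the CpG density of the fragment.

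Insulin binds its receptor at the cell surface, and the receptor phosphorylates the adaptor proteins Irs1 and Irs2. These recruit phosphoinositide 3-kinase, which leads to activation of the kinase Akt2. In fat cells Akt2 releases vesicles that carry the glucose transporter Slc2a4 (GLUT4) to the cell surface, where it lets glucose in. Methylation of cytosines in CpG-rich promoters is generally linked to low transcription, but transcript levels were not analysed here.

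The antibody reads methylated cytosines, which in mammals lie mainly in CpG pairs, so the density of CpG bears on a MeDIP ratio. The 250 bases before the start site of 3 of the genes, from the RefSeq promoter table (GRCm38.p6, a later build than the mm9 positions of the probes), are shown 5′ to 3′ with each CpG in capitals. Irs1 (chr1:82291440-82291689, minus strand) and Irs2 (chr8:11008930-11009179, minus strand) are the genes whose promoters passed the test. Akt2 (chr7:27591302-27591551, plus strand, the 5′-most of its starts in the table) is the only other member found in the table. Whether CpG density goes with a call was not tested.
Irs1: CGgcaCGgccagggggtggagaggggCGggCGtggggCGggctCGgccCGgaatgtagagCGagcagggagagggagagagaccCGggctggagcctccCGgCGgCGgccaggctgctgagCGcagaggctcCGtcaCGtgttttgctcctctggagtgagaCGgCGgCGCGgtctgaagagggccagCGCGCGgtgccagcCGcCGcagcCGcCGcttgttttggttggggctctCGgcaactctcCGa
Irs2: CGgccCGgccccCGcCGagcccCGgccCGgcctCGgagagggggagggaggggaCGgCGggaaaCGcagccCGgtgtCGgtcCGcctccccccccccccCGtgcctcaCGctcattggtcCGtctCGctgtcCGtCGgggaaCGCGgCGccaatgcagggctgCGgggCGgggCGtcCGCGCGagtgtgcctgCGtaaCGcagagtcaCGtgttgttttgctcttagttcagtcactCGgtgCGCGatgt
Akt2: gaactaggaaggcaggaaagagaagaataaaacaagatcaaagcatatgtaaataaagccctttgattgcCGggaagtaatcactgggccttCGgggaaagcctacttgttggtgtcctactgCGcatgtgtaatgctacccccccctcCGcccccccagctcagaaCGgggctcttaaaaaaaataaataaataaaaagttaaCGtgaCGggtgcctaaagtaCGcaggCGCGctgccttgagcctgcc

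The Irs1 stretch held 28 CpG and the Irs2 stretch 34, with a GC content of 72.4% and 72.8%. Of the 32841 promoters of the table, 7.61% held at least as many CpG as Irs1 and 3.53% at least as many as Irs2, searched as the letters CG, and the median was 6. The Akt2 stretch held 10 CpG at a GC content of 48.8%, a number that 37.8% of promoters reached. Of all these promoters 92.1% held at least 1 CpG. Insr and Slc2a4 were not matched in the table. In the RefSeq gene table of the same build, other genes lay wholly or partly within 3 kb of the start of a member. These were the long noncoding RNA gene 9530052E02Rik at Irs2 and the pseudogenes Gm18046 at Akt2 and Gm12310 at Slc2a4. These windows are thus not particular to the named gene.

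Of the 6 regions, 2 were lower in LC than in CC after adjustment over all 22584 regions (limma, Benjamini–Hochberg), and none was higher. At an unadjusted p under 0.05, 2 were lower and 1, Akt2 upstream, was higher, beside 17.2% and 21.5% of all regions. The calls were the promoters of both adaptors, Irs1 and Irs2. Across the array 8.84% of regions were called lower and 10.2% higher, 19.0% in all, so calls were common. In 3 of the 6 regions, Irs1, Irs2 and Slc2a4, every LC array lay below every CC array. That held for 20.5% of all regions, and for another 24.1% every LC array lay above, which leaves 44.5% without overlap. On the mean 4 of the 6 regions were lower in LC, as were 46.2% of all regions, but the sign turned with normexp correction at 2 of the 4, Akt2 proximal and Slc2a4. The median difference over the 6 regions was −0.07, against 0.02 over all regions. With 3 mice against 3, an exact two-sided permutation test of a single region cannot go below 0.1.

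Insr encodes the insulin receptor. Its region, chr8:3279121-3280830, held 9 probes from −1208 to 457 bp relative to the window center, with negative distances upstream. The LC arrays gave −0.54, −0.40 and −0.55, and the CC arrays −0.56, −0.57 and −0.52. The groups overlapped, with LC mouse 2 above the other five arrays. The means were −0.50 ± 0.08 in LC and −0.55 ± 0.03 in CC (SD, n = 3 each). The difference was 0.06 with a standard error of 0.05, its 95% confidence interval ran from −0.06 to 0.18, and limma gave an adjusted p of 0.439. With normexp background correction the difference was 0.15 and the adjusted p 0.0199. It was 0.01 without LC mouse 2, 0.0058 with arrays scaled to equal median absolute deviation and 0.26 with the median over probes, none of which passed the threshold.

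Irs1 is the insulin receptor substrate long studied in fat and muscle. Its region, chr1:82287606-82289077, held 6 probes. The LC arrays gave −0.01, 0.24 and 0.19 and the CC arrays 0.48, 0.48 and 0.46. All LC mice lay below all CC mice, and the spread was wider in LC, with a mean of 0.14 ± 0.13 against 0.47 ± 0.01 (SD, n = 3 each). The difference of −0.33 (SE 0.06, 95% confidence interval −0.48 to −0.19) corresponded to a MeDIP/input ratio 0.793 times that in CC, with an adjusted p of 0.0194 by limma. The size of this difference was at the 97.5 percentile of all regions. By scan day, each day holding 1 mouse of each group, the differences were −0.49, −0.23 and −0.28. With scan day as a block the difference was the same and the adjusted p was 0.0508, so the call was lost there.

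Irs2 is the other widely expressed adaptor of the receptor. Its region, chr8:11006558-11009708, was the longest of the set, with 15 probes. The LC arrays gave 0.43, 0.49 and 0.57 and the CC arrays 0.77, 0.66 and 0.87, again without overlap and with LC below. The means were 0.50 ± 0.07 and 0.77 ± 0.10 (SD, n = 3 each). The difference was −0.27 (SE 0.06, 95% confidence interval −0.41 to −0.13), a ratio 0.830 times that in CC, with an adjusted p of 0.0251 by limma. The size of this difference was at the 92.7 percentile of all regions. The scan days gave −0.34, −0.17 and −0.30, and with scan day as a block the adjusted p was 0.0508. Both adaptor calls were also lost when CC mouse 1 or CC mouse 3 was left out, with adjusted p of 0.082 and 0.071 for Irs1 and of 0.092 and 0.086 for Irs2. With slide as a block the adjusted p was 0.162 for Irs1 and 0.163 for Irs2 by limma. Slide here stands for a shared scan time, and whether arrays with different scan times lay on 1 slide was not checked. LC mouse 3 and CC mouse 3 did not share a scan time. Within these blocks the groups were thus compared through mice 1 and 2 only, with 1 residual degree of freedom and little power. Irs2 also missed the threshold after quantile normalization (0.0571 by limma). No region of the array was called by limma in either direction with scan day as a block or without CC mouse 1 or 3, although at an unadjusted p under 0.05 there were 2935 to 3739 lower and 3182 to 4521 higher ones.

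Akt2 is the Akt isoform most closely tied to insulin-stimulated glucose uptake. Its upstream region, chr7:28375292-28375747, held 3 probes. The LC arrays gave 0.52, 0.08 and 0.14 and the CC arrays 0.10, −0.09 and −0.14. LC mouse 1 was the highest of the 6, and LC mouse 2 lay just below CC mouse 1, so that the groups overlapped. The means were 0.24 ± 0.24 and −0.04 ± 0.13 (SD, n = 3 each), a difference of 0.29 (SE 0.11, 95% confidence interval 0.05 to 0.53) with an adjusted p of 0.0809 by limma. The spread within groups was at the 98.3 percentile of all regions. Without LC mouse 1 the difference was 0.15 (adjusted p = 0.167 by limma), and without LC mouse 2 it was 0.37 (adjusted p = 0.039). It was 0.088 in the authors' values (adjusted p = 0.315) and 0.13 with normexp background correction (adjusted p = 0.0887). By scan day the differences were 0.42, 0.17 and 0.27, all above 0. With scan day as a block the difference was the same, with an adjusted p of 0.0514 by limma, beside 0.0508 for both adaptors. That 0.0508 was the smallest adjusted p of any region in this setting, and the adjustment gave it to regions with unlike p. Before adjustment limma gave 0.0021 for Akt2 upstream, 0.0012 for Irs1 and 0.0017 for Irs2. With slide as a block the Akt2 upstream difference was 0.29 (adjusted p = 0.162 by limma). The middle probe, at −1286.5 bp, was not well above background in the MeDIP channel on any array, and in input on 5 arrays only. It had the largest difference of the 3 probes, 0.49 against 0.05 and 0.32. Its LC arrays gave −0.87, −1.73 and −1.95, with LC mouse 1 the highest. The part of this probe in the difference of the region was not tested.

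The proximal Akt2 region, chr7:28376356-28376825, also held 3 probes. The LC arrays gave −0.45, −0.45 and −0.54 and the CC arrays −0.46, −0.34 and −0.52. The groups overlapped, at −0.48 ± 0.05 and −0.44 ± 0.10 (SD, n = 3 each), and the difference of −0.04 (SE 0.06, 95% confidence interval −0.17 to 0.09) had an adjusted p of 0.642 by limma. The sign of this difference changed under 7 of 22 alternative settings.

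Slc2a4 encodes the insulin-responsive glucose transporter of fat and muscle. Its region, chr11:69761193-69762950, held 9 probes. The LC arrays gave −0.54, −0.45 and −0.51 and the CC arrays −0.37, −0.42 and −0.40. All LC mice lay below all CC mice by a narrow margin, with means of −0.50 ± 0.05 and −0.40 ± 0.02 (SD, n = 3 each). The difference of −0.10 (SE 0.05, 95% confidence interval −0.20 to 0.0044) had an adjusted p of 0.143 by limma. With normexp background correction the difference was 0.05, so the sign rests on that choice.

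**Figure D1:**
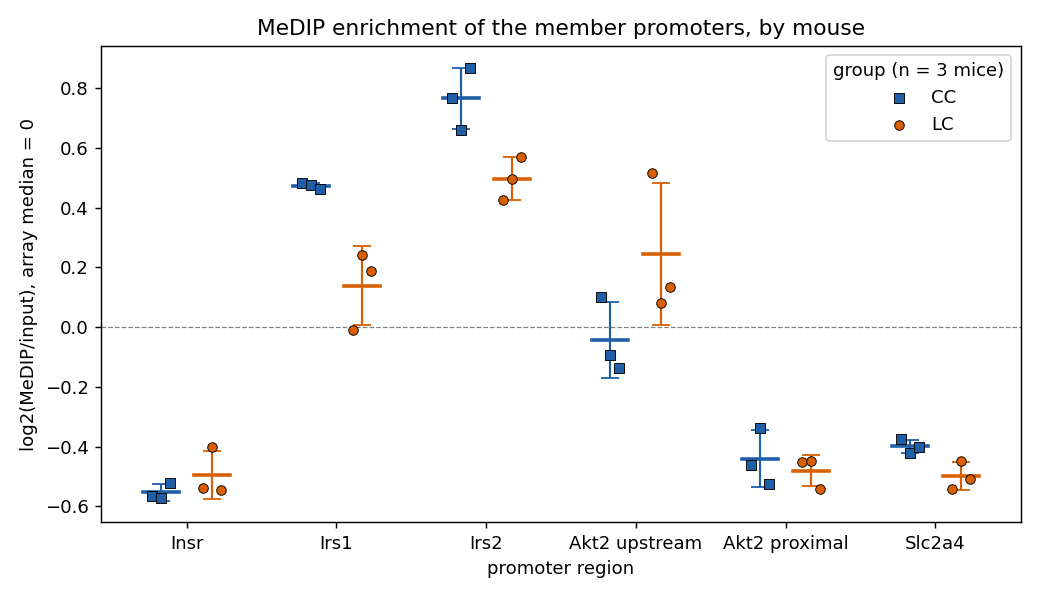
Mean log2(MeDIP/input) of each promoter region in each mouse (points), with the group mean (long bar) and SD (whiskers), n = 3 LC and 3 CC. The LC mice lie below the CC mice at Irs1, Irs2 and Slc2a4 (a sign that turned at Slc2a4 with normexp correction), and the LC and CC mice overlap at Insr and both Akt2 regions.

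Within a promoter the probes covered a wide range, and levels of different probes were not compared, since they also depend on the sequence each probe holds. CC means of single probes ranged from −3.82 to 1.80 at Insr, from −2.67 to 1.64 at Irs1, from −1.47 to 2.11 at Irs2, from −2.01 to 1.85 at Akt2 and from −3.93 to 1.97 at Slc2a4. LC means covered a similar span, such as −3.51 to 1.61 at Insr. Of the 45 probes, 24 were lower in LC and 21 higher on the mean, and 42.8% of all probes were lower. The median difference was −0.06 against 0.05 over all probes. Every LC array lay below every CC array at 14 of the 45 and above at 3, while 17.7% and 20.7% of all probes did so.

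Of the 45 probes, 6 were called lower in LC (limma, adjusted over all probes) and none higher, against 4.29% and 1.75% of all probes, or 6.04% in either direction. At an unadjusted p under 0.05 the counts were 12 and 2, and 15.4% and 16.2% of all probes. The 6 probes were all in the adaptor promoters, 3 in Irs1 and 3 in Irs2, with adjusted p from 0.030 to 0.046. When any 1 of the CC mice was left out, limma called no probe of the array, members included, although at an unadjusted p under 0.05 there were 20707 to 23022 lower and 16636 to 21759 higher probes. Without LC mouse 1, 3 of the 45 were called lower, beside 2.10% of all probes. Probes of 1 promoter are not independent of each other, since fragments can span several of them.

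In Irs1 the called probes lay at −534, −308 and 372 bp. The probe at −308 bp (chr1:82288286-82288330) gave −0.90, −0.56 and −0.68 in LC and 0.35, 0.11 and 0.11 in CC, a difference of −0.90. The probes at −534 and 372 bp differed by −0.62 and −0.61. The probe at −41 bp was also lower in every LC mouse, by 0.27, with an adjusted p of 0.107 by limma. At −791 bp the 2 groups overlapped, with means of 1.84 in LC and 1.64 in CC. The lower values in LC thus spanned the stretch from −534 to 372 bp, and neither of the 2 probes farther upstream shared them.

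In Irs2 the called probes lay at 111, 1202 and 1403 bp. The probe at 111 bp (chr8:11008267-11008311) showed the largest difference of all 45, with 0.59, 0.87 and 1.15 in LC against 1.87, 2.09 and 1.88 in CC, a difference of −1.08. The 2 probes farther downstream differed by −0.57 and −0.60. Between the called probes, the one at 319 bp was higher in LC on the mean, by 0.19, with groups that overlapped (adjusted p = 0.652 by limma). At −194 bp the CC mice themselves were split, at 0.89, −0.61 and 0.96, with the LC mice between −0.28 and −0.09. The called probes at 1202 and 1403 bp were neighbors, and the one at 111 bp was set apart from them by probes without a call.

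The search for peaks, which ranks probe differences in windows of 750 bp by a Kolmogorov–Smirnov test and asks for at least 2 adjacent probes with a score (−log10 p) of 2 or more, found lower peaks in 1 member region, Irs2. Lower peaks were found in 4.10% of all regions and higher peaks in 2.20%. The score takes the probes of a window as its units and works on differences of group means. It thus holds no spread between mice, and neighboring probes are not independent. The first Irs2 peak held the probes at −594, −393 and −194 bp and the other those at 1202 and 1403 bp, with scores up to 2.45. The Irs1 score reached 2.35, but in a single window, at −308 bp. A score needed at least 3 probes in the window, which 3 windows had at Irs1 and 13 at Irs2. The Irs1 windows at −41 and 372 bp held 2 and 1 probes and were not scored. Each Akt2 region had 1 scored window, so a peak could not arise there. At a cut-off of 3, or without LC mouse 2, no member region had a peak.

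**Figure D2:**
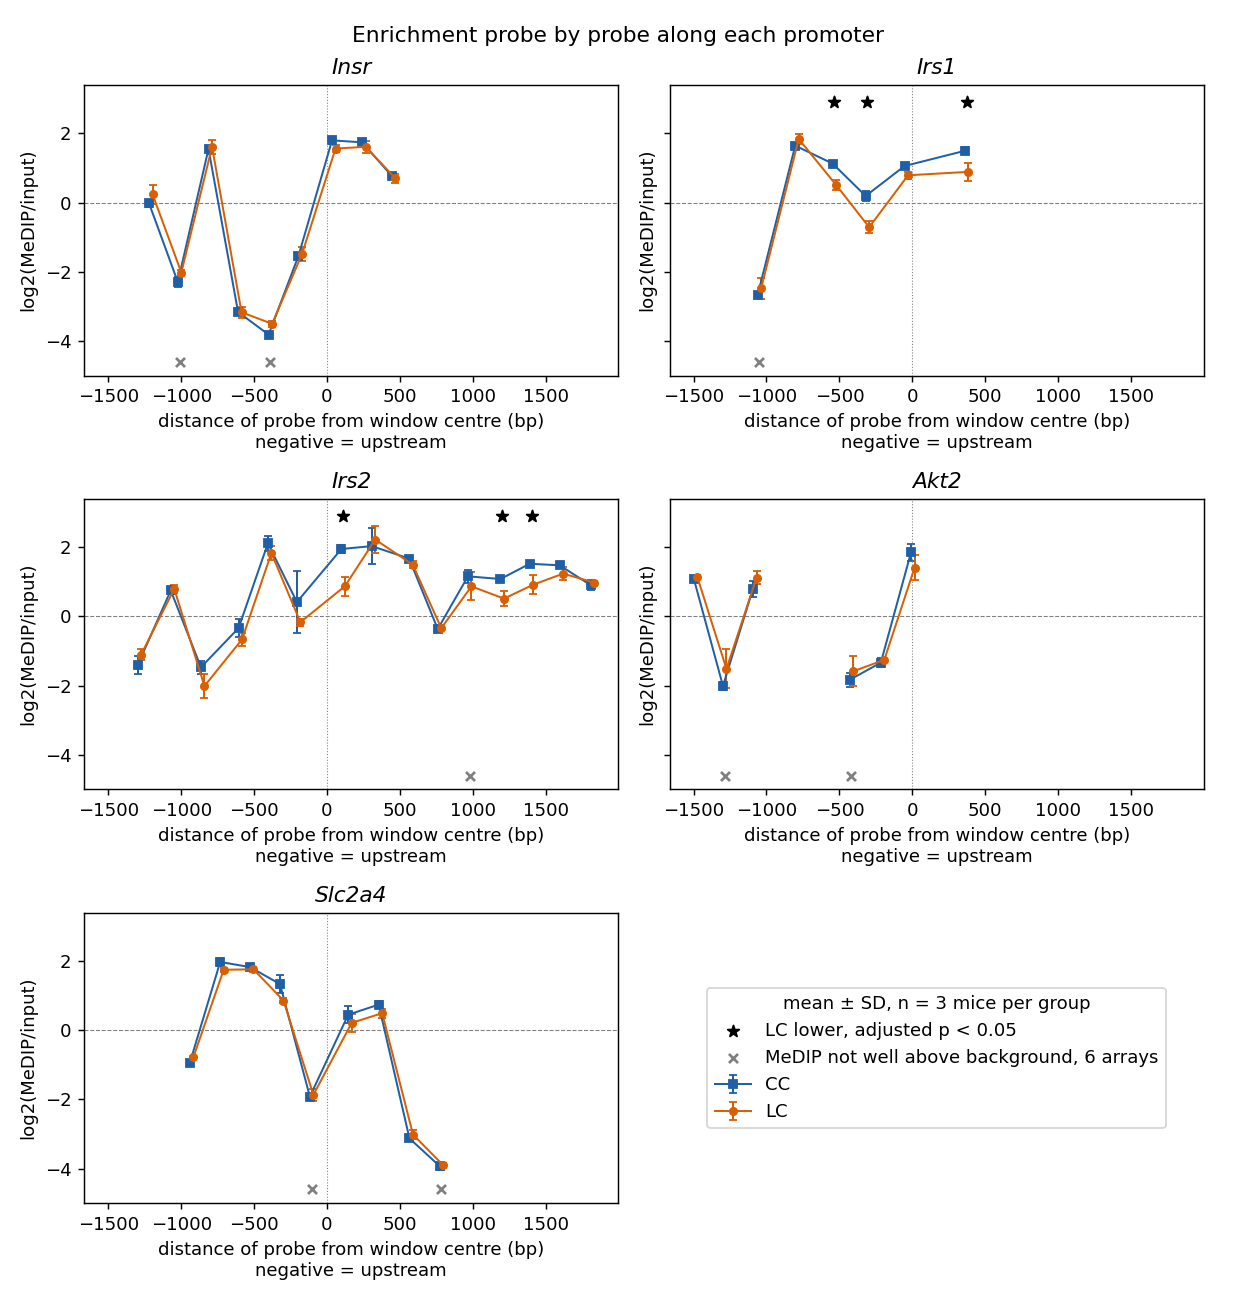
Mean log2(MeDIP/input) with SD (n = 3 mice per group) of each probe against its distance from the window center in bp, for the 5 genes. Stars mark the 6 probes called lower in LC, 3 in Irs1 and 3 in Irs2, and crosses mark 8 probes whose MeDIP signal was not well above background on any array.

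The ratio joins 2 measurements, so each channel was also compared alone after quantile normalization between arrays. At Irs1 the input signal was higher in every LC mouse (log2 9.95, 9.80 and 9.82) than in any CC mouse (9.59, 9.60 and 9.57), by 0.27 with an adjusted p of 0.0088 by limma. Without CC mouse 3 this adjusted p was 0.0517. The MeDIP signal of Irs1 overlapped between the groups, at 10.01, 10.04 and 10.02 in LC and 10.09, 10.04 and 10.02 in CC, a difference of −0.03 (adjusted p = 0.675 by limma). Irs1 was the 1 member region called in input, while 14.1% of all regions were called in either direction, 1582 higher and 1609 lower. In 18.6% of regions every LC mouse lay above every CC mouse.

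At Irs2 the input signal was likewise higher in every LC mouse, by 0.22 (adjusted p = 0.0592 by limma). Its MeDIP signal differed by −0.08 with overlap (adjusted p = 0.442 by limma). In the MeDIP channel 0.00% of regions were called by limma in either direction, although 1234 were lower and 1226 higher before adjustment. At the 6 called probes the input differences were 0.30 to 0.88 and the MeDIP differences −0.15 to 0.0043, all on the log2 scale. The lower ratios at both adaptors thus went with higher input signal in LC, and the part of the input signal in the result was not tested.

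The other regions showed no call in either channel. At Insr the input differed by −0.10 (adjusted p = 0.130) and the MeDIP signal by −0.05 (adjusted p = 0.484), both by limma. In input every LC mouse lay below every CC mouse there, as in 18.6% of all regions. In MeDIP that held for 3 of the 6 regions, Insr, Akt2 proximal and Slc2a4, and for 6.60% of all regions, while 8.68% had every LC mouse above. At Akt2 upstream the input difference was −0.20 (adjusted p = 0.201) and the MeDIP difference 0.01 (adjusted p = 0.947) by limma, with overlap in both channels. At Akt2 proximal they were −0.04 (adjusted p = 0.658) and −0.05 (adjusted p = 0.430) by limma. At Slc2a4 the input differed by 0.01 (adjusted p = 0.926) and the MeDIP signal by −0.04 (adjusted p = 0.519) by limma.

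**Figure D3:**
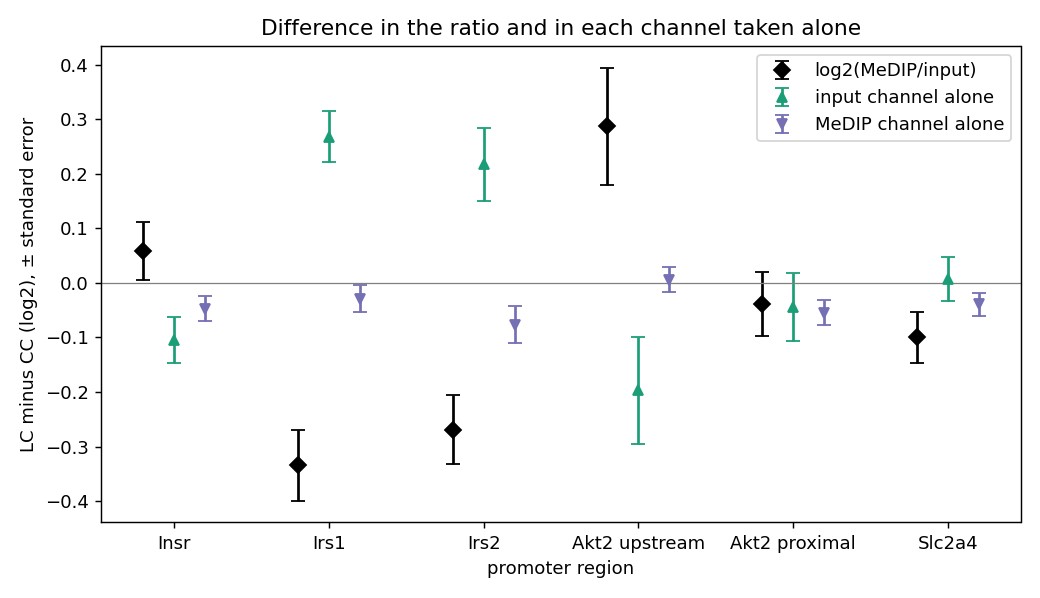
LC minus CC difference (log2) with its standard error for the ratio, the input channel alone and the MeDIP channel alone, in the 6 promoter regions, n = 3 mice per group. At Irs1 and Irs2 the input differences, 0.27 and 0.22, are farther from 0 than the MeDIP differences, −0.03 and −0.08.

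The arrays of the groups differed in brightness. Above local background, the input signal had a median of 105.25 to 169 in LC and 239.5 to 333.5 in CC, and the share of probes well above background in input was 89.1% to 94.4% and 96.8% to 97.6%. The MeDIP medians were 118 to 143.5 and 142 to 218. The 218 was that of CC mouse 3, whose Cy5 channel was scanned at 306 V, against 279 V on every other array. CC mice 1 and 2 had 146.5 and 142. The part of this setting in the result was not tested. All LC arrays were at slide position 1 and all CC arrays at position 3, so position and group cannot be told apart. Region values correlated at 0.977 to 0.990 among LC arrays, 0.993 to 0.994 among CC arrays and 0.956 to 0.988 between groups.

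Signal strength also varied among the 45 probes. In input 40 were well above background on all 6 arrays, and in MeDIP 37 on all 6 and 8 on none. Those 8 were spread over every gene, with 2 each in Akt2, Insr and Slc2a4 and 1 each in Irs1 and Irs2, and none of them was among the 6 called probes. With only probes well above background in both channels, a setting chosen after seeing the data, Irs1 differed by −0.38 (adjusted p = 0.0058 by limma) and Irs2 by −0.27 (adjusted p = 0.0166). Calls were also more common over the array there. Of 20581 regions, 2560 were called lower and 2877 higher, beside 1997 and 2304 of 22584 in the reported fit. Of the 45 probes 39 were 45 bases long, the shortest length on the array, which is 86.7% against 49.9% of all probes. All 6 called probes had that length, and its part in the result was not tested.

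**Figure D4:**
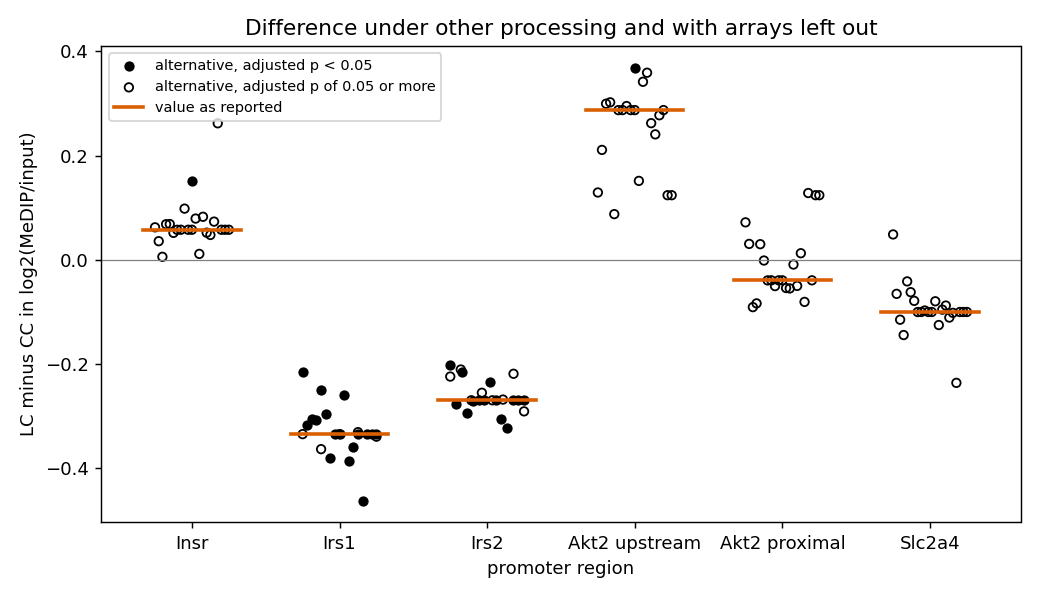
LC minus CC difference in log2(MeDIP/input) for each region under alternative processing and with single arrays left out, filled where the adjusted p was under 0.05, with the reported value as a line. Irs1 stays between −0.46 and −0.21 and Irs2 between −0.32 and −0.20, and the points of Akt2 proximal and Slc2a4 fall on both sides of 0.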

How the data were processed

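The members, windows and lists were chosen with earlier results of these data known. Per the labels and file headers, the deposited scanner files (Agilent Feature Extraction 11.0.1.1, mm9) hold the intensity of each dye, raw and after the background subtraction, spatial detrending and linear dye scaling done before deposit. The deposited log10 ratio served to check direction (r of 0.999 or more with log2 of the processed signals). The authors' processed table is on a log2 scale, with array medians of 0.02 to 0.03 and r of 0.866 to 0.904 with the scanner ratios across probes; its normalization is not given in the sources used here, and it served as an alternative. Spot flags, also deposited, took the values 0 or 1.

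Controls and the 362 outlier probes were left out, log2(Cy5/Cy3) was centered on each array's median, with no loess or quantile step, and probes were averaged by region. LC minus CC was fitted on all regions, and on all probes, with limma 3.58.1 in R 4.3.3 (threshold 0.05). Tested on simulated data in which 200 of the 22584 regions were shifted by 0.50, the fit recovered 165 and called 7 others. That shift was larger than the reported difference of any member region, so recovery at the reported sizes was not tested. The simulated noise was independent between regions and held no effect of array or scan day. Distances run from the window center, which only approximates the start site. The 5 members and all probes in their windows are named, whatever their values. Other pathway genes were not analysed here, because the files name no genes. Scan day was tried as a block because each day held both groups. The number of arrays limits the precision.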

Additional observations from a re-analysis of the deposited data

How the results depend on the processing

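Irs1 was below 0 under all 23 alternatives run (−0.46 to −0.21) and passed the threshold in 18, and Irs2 was below 0 under all 23 (−0.32 to −0.20) and passed in 15. Both counts include the methods' t-test with its p unadjusted. After Benjamini–Hochberg adjustment that t-test gave 0.127 for Irs1 and 0.136 for Irs2. Some alternatives, such as keeping outlier spots, changed little in the fit. Calls were lost with the replicate block (scan day), at −0.33 and −0.27 with adjusted p of 0.0508 for both. They were also lost with slide as a block (−0.36 and −0.25) and with the methods' t-test after Benjamini–Hochberg (−0.33 and −0.27). Irs2 also lost its call with quantile normalization (−0.22), arrays scaled to equal median absolute deviation (−0.21) and the median over probes (−0.29). Leaving out single arrays gave −0.39 to −0.26 for Irs1 and −0.32 to −0.22 for Irs2, with the calls lost without CC mouse 1 or 3. Normexp correction brought Insr to 0.15 (adjusted p = 0.0199 by limma) and turned Slc2a4 to 0.049, and the methods' t-test, unadjusted, gave −0.10 for Slc2a4, past the threshold. With arrays left out Insr ranged from 0.01 to 0.08, Akt2 upstream from 0.15 to 0.37 and Slc2a4 from −0.13 to −0.08. Akt2 proximal turned above 0 with normexp (0.072), loess (0.031), the authors' values (0.030), the median over probes (0.13), gaps of up to 1000 bp (0.12) and all window probes together (0.12), and ranged from −0.081 to 0.013 with arrays left out. Filters on dim probes left the Akt2 upstream region, and with both channels also the proximal one, with under 3 probes and no value. Arrays of the same replicate number shared a scan day. Over all regions, their deviations from the group means correlated at −0.16, 0.11 and −0.0008. This does not settle whether the pairing matters at a single region. At Akt2 upstream the standard error was 0.107 without the block and 0.059 with it.

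Member probes called lower, each with the count over all probes, numbered 3 with quantile normalization (2433 of 174276), 2 with the same median absolute deviation (2723), 11 with the authors' values (13494), 3 with the replicate block (3078), 0 with slide as a block (0, with 24741 before adjustment) and with the adjusted t-test (1), 11 with the unadjusted one (20865), and 0 to 7 with arrays left out (0 to 10617). Member probes called higher numbered 6 with normexp (13.5% of all probes), 1 of 40 with the input filter (7.24%) and 3 with the unadjusted t-test (13.1%). Of all regions, the lower and higher calls (1997 and 2304) became 1037 and 520 with quantile normalization, 991 and 312 with the same median absolute deviation, 1173 and 744 with the median over probes, and 3093 and 3465 with the unadjusted t-test. Both were 0 with the replicate block, slide as a block and the adjusted t-test (2477 to 3739 and 3075 to 4521 at an unadjusted p under 0.05), and 0 to 2368 and 0 to 2863 with arrays left out. Higher calls were 4665 with normexp, 891 with loess and 3767 with the input filter. In input alone, Irs2 passed the threshold after median centering (0.23), normexp (0.14) and the replicate block (0.22), as did Akt2 upstream with the block (−0.20). Akt2 proximal turned to 0.016 after centering and Slc2a4 to −0.00094 with normexp. With arrays left out the input differences were 0.22 to 0.30 for Irs1, 0.14 to 0.28 for Irs2, −0.30 to −0.10 for Akt2 upstream (the latter without LC mouse 1), −0.10 to 0.0045 for Akt2 proximal and −0.011 to 0.031 for Slc2a4. In MeDIP alone, Akt2 upstream turned to −0.014 after centering and −0.0062 with normexp, and ranged from −0.0046 to 0.014 with arrays left out, against −0.04 to −0.01 for Irs1 (−0.01 without CC mouse 1) and −0.11 to −0.05 for Irs2 (−0.05 without LC mouse 1). Lower peaks fell from 1 member region to 0 at a score of 3, and to between 0 and 1 with arrays left out. All lower peaks (925) became 1520 with windows of 1000 bp, 118 at a score of 3 and 1983 with the authors' values. All higher peaks (496) became 233 with 500 bp, 945 with 1000 bp, 37 at a score of 3 and 1510 with the authors' values. The cause of these changes was not tested.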
